A study of Mus musculus with 12 samples.

Results

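This account follows the response of mouse macrophages to LPS when the low concentration of the inhibitor peptide cpTLR-i was present. Its members are the 6 libraries, of 12 in the series, that the sample labels place in the group with LPS and 1 μM cpTLR-i (3 libraries) and in the control group (3 libraries). RNA-seq was performed on BMDMs, macrophages grown from WT mouse bone marrow in 20 ng/ml M-CSF over 7 days. The BMDMs of the 1 μM group (1 μM BMDMs below) received the peptide first and were then activated with LPS for 2 h. The control BMDMs received neither agent, and the labels give them a time of 0 h, so the effects of LPS, of the peptide and of time cannot be told apart between the 2 groups. LPS BMDMs, activated for 2 h with no peptide (3 libraries), are given beside them where a gene differed between these 2 activated groups. The remaining 3 libraries of the series received LPS for 2 h with 10 μM cpTLR-i. No library held the peptide without LPS. Neither the labels nor the methods state if replicate libraries were made from separate mice or cultures. The p-values thus measure the spread between libraries, which may be technical.

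LPS, a cell wall component of Gram-negative bacteria, is recognized by TLR4 together with CD14 and MD-2. The adaptors TIRAP and MyD88 carry the signal from the plasma membrane to NF-κB and the MAP kinases, which switch on cytokine genes, and the adaptors TRAM and TRIF carry it from endosomes to IRF3, which induces interferon-β and, through its receptor, the interferon-stimulated genes. cpTLR-i joins a motif from the TIR domain of TIRAP to a cell-penetrating sequence.

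The file gives FPKM, in which the fragments of a gene are scaled to the length of its transcript and to the mapped fragments of the library, as deposited by the authors. A gene was tested if it reached 0.5 FPKM in 3 or more of the 12 libraries, which left 12315 of 23959 genes. Log2(FPKM + 0.25) was compared with limma over all 12 libraries, and calls required both an adjusted p (Benjamini-Hochberg) below 0.05 and more than a 1.5-fold change. On this scale the change of genes with low FPKM is understated. FPKM summed to 411529 to 422014 in 1 μM BMDMs and 412886 to 416783 in control. The 1 μM libraries had 10247 to 10285 genes at 1 FPKM or more, and control had 10867 to 10905. Pearson's r across the 12315 genes was 0.996 to 0.997 among the 1 μM libraries, 0.996 among the control libraries and 0.885 to 0.887 between the 2 groups. No library stood apart. Csf1r, the receptor for M-CSF, was at 414, 398 and 399 FPKM in 1 μM BMDMs, against 508, 495 and 516 FPKM in control. Adgre1, which encodes the macrophage marker F4/80, was at 414, 404 and 373 FPKM in 1 μM BMDMs, against 349, 320.2 and 350.3 FPKM in control. Both markers of the labelled cell type were abundant in every library. In bulk RNA, fewer cells of a type and less RNA per cell cannot be told apart. Unless stated otherwise, the 3 libraries of the 1 μM group lay all above or all below the 3 of control for each gene named below.

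With 1 μM cpTLR-i and LPS, 1339 of the 12315 genes were higher than in control (10.9%) and 3849 were lower (31.3%). The largest changes were rises, and changes of more than 4-fold were called in 453 genes that rose and 201 that fell. Over all 12315 genes the log2 fold change had a median of -0.33 and quartiles of -0.71 and -0.01, and the balance of the 2 directions therefore moved with the scaling. After median-ratio scaling, which sets that median to 0, 2004 genes were higher and 2149 lower, and after quantile normalization 1742 and 2280. Neither scaling turned any call round. The counts of each list below are to be read against those of all tested genes under the same scaling. Log2 fold changes below are on the deposited FPKM scale, on which the median gene lay at -0.33, and counts after median-ratio scaling stand beside each list. The share that fell was larger among genes of low level. In the quartile of genes with the lowest mean FPKM over the 12 libraries, 10.2% rose and 46.2% fell, while in the quartile with the highest, from 18.1 FPKM upward, 16.4% rose and 10.1% fell. The median log2 fold change was -0.54 in the lowest of these quartiles and -0.13 in the highest. The median of -0.33 is therefore no common baseline for genes of every level.

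**Figure D1:**
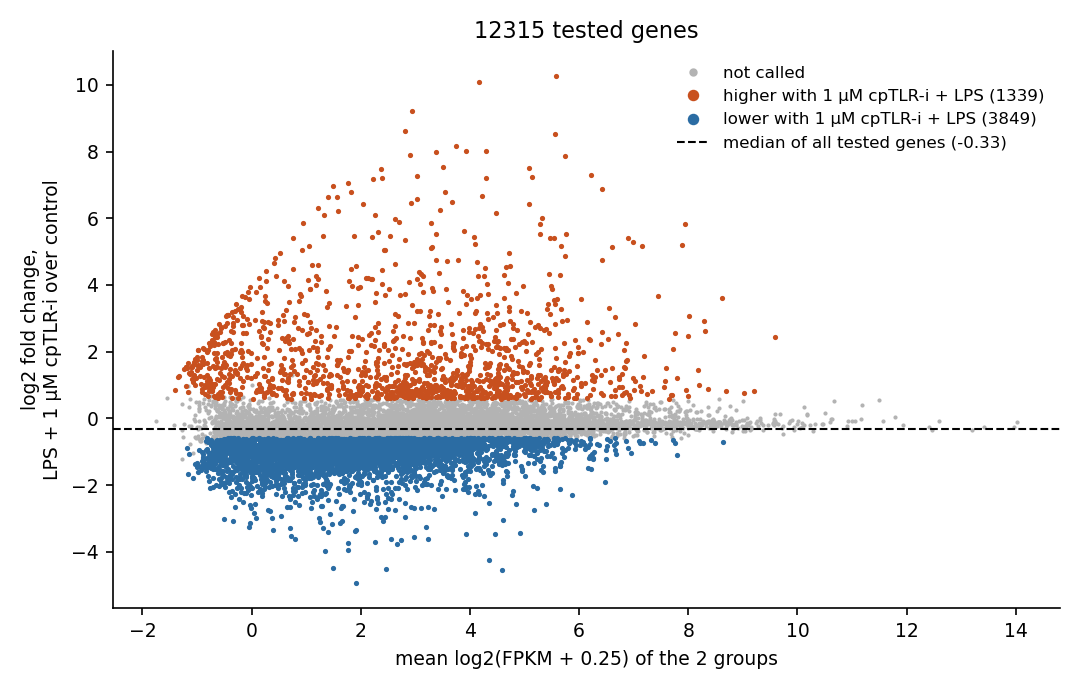
Log2 fold change of LPS + 1 μM cpTLR-i over control (vertical axis) against the mean log2(FPKM + 0.25) of the 2 groups (horizontal axis) for the 12315 tested genes, 1 point per gene. The 1339 genes called higher reach 10.26 on the log2 scale and the 3849 called lower reach -4.92, and the dashed line marks the median of -0.33.

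By the rule for named genes, the 12 largest rises among called genes of at least 2 FPKM in a group, leaving out predicted genes and genes whose groups overlapped, were in Cxcl10, Il1b, Il12b, Cxcl1, Acod1, Socs3, Gbp5, Cxcl2, Il1a, Il27, Tnf and Nfkbiz. Of these, 8 encode secreted cytokines and chemokines. The other 4 encode the enzyme that makes itaconate (Acod1), an inhibitor of cytokine receptor signaling (Socs3), an interferon-induced GTPase (Gbp5) and an atypical IκB protein (Nfkbiz). Cxcl10, whose protein attracts T cells through CXCR3, had the largest rise (gene ID 15945, chr5:92346638-92348889 of GRCm38). It was at 1708, 1665 and 1639.7 FPKM in 1 μM BMDMs, against 1.12, 1.20 and 1.01 FPKM in control, a log2 fold change of 10.26 (standard error 0.08, limma adjusted p = 1.51e-17). Il1b, which encodes the pyrogenic cytokine IL-1β (gene ID 16176, chr2:129364569-129371164), was at 642, 536 and 567 FPKM in 1 μM BMDMs, against 0.328, 0.408 and 0.157 FPKM in control (log2 fold change 10.08, standard error 0.14, limma adjusted p = 1.39e-15). Both genes were chosen among called genes whose groups did not overlap, so the separation of their libraries is no further evidence.

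Cxcl10 lies on chromosome 5 between Cxcl9 (92321331 to 92328079) and Cxcl11 (92359544 to 92363296), the genes of the other ligands of CXCR3. The neutrophil chemokine genes Cxcl3, Cxcl1 and Cxcl2 lie on the same chromosome, from 90786101 to 90905938. All 6 rose. The promoters of 6 genes that the results below return to are shown as the 250 bases before the RefSeq start on the strand of the gene (build GRCm38.p6). For Il1b the table places this start inside the annotated gene span given above, and distances are counted from the start of the table. Cxcl10, Cxcl1, Nfkbia, Isg15 and Il1b rose, and Cxcr4 fell. Capitals mark matches, on either strand, to the κB site, to the interferon-stimulated response element (ISRE) or to the TATA box TATAAA.
Cxcl10 (chr5:92348890-92349139, minus strand): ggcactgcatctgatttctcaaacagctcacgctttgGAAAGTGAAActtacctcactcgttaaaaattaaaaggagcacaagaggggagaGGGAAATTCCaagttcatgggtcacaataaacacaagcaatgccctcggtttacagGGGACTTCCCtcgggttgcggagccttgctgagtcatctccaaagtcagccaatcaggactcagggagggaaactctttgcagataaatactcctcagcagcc
Cxcl1 (chr5:90890995-90891244, plus strand): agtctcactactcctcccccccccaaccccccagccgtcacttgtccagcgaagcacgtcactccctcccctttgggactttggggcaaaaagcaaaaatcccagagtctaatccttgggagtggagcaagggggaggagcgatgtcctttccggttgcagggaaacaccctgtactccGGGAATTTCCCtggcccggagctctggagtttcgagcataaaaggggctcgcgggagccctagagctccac
Nfkbia (chr12:55492648-55492897, minus strand): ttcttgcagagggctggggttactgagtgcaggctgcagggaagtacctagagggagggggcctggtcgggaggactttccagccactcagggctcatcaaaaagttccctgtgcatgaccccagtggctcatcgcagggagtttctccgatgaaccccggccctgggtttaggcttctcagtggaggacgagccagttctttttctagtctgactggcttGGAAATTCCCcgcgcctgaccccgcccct
Isg15 (chr4:156200819-156201068, minus strand): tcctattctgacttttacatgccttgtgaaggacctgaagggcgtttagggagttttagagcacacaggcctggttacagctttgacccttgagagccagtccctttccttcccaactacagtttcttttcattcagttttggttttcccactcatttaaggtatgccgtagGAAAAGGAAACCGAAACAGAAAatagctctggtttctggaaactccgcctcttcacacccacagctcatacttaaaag
Il1b (chr2:129371140-129371389, minus strand): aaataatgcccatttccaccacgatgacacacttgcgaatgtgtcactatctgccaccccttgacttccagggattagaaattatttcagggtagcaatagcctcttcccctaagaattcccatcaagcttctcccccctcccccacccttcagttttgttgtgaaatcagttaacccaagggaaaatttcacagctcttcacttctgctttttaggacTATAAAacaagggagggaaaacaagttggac
Cxcr4 (chr1:128592300-128592549, minus strand): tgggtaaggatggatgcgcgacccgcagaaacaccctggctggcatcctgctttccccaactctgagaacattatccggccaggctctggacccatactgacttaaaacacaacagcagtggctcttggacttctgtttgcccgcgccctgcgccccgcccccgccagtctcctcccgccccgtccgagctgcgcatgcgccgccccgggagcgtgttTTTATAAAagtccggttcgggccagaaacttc

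The capitals in Cxcl10 are an ISRE that begins 213 bases before the start and 2 κB sites that begin 159 and 103 bases before it. Those in Cxcl1 are 2 κB matches that overlap each other, beginning 71 and 70 bases before the start, and the match in Nfkbia is a κB site 29 bases before it. Isg15 holds 3 overlapping ISRE matches within 78 bases of its start. Il1b and Cxcr4 hold TATA boxes, at 31 bases in Il1b and overlapping at 32 and 30 bases in Cxcr4. Among the 27025 genes with a promoter in this table, a κB match was found in 3.74%, an ISRE match in 3.05% and TATAAA in 13%. A match describes letters only. The table held a promoter for 74.7% of the tested genes. Whether the genes without one differ from the rest was not tested, and the shares of motifs were not compared between called genes and all genes.

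Of 32 tested cytokine genes (42 listed), 25 rose and 1 fell (26 and 1 after median-ratio scaling), against 10.9% and 31.3% of all tested genes. The list's median log2 fold change was 3.02. Without control replicate 2, 3 fell, and without 1 μM replicate 1 or 2, 2 fell. Il12b and Il27 encode subunits of cytokines that drive Th1 differentiation, and Il1a encodes the alarmin IL-1α. Il12b was at 203, 181 and 177 FPKM in 1 μM BMDMs, against 0.0366, 0.0357 and 0.118 FPKM in control. Il27 was at 118, 116 and 106 FPKM in 1 μM BMDMs, against 0.177, 0.371 and 0.167 FPKM in control. Il1a was at 182, 150.4 and 165 FPKM in 1 μM BMDMs, against 0.433, 0.473 and 0.317 FPKM in control. All 3 genes were below 0.5 FPKM in every control library, and their log2 fold changes were 9.23 for Il12b, 7.98 for Il1a and 7.89 for Il27. Tnf encodes the early inflammatory cytokine TNF-α. It was at 853, 768 and 815 FPKM in 1 μM BMDMs, against 3.16, 3.66 and 2.90 FPKM in control (log2 fold change 7.87, standard error 0.08, limma adjusted p = 5.59e-17).

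Il6, Ifnb1 and Csf2 were listed at 0 in all 3 control libraries, so no fold is given for them. Il6, which encodes a cytokine of the acute phase response, was at 35.1, 30.6 and 28.0 FPKM in 1 μM BMDMs. Ifnb1, the gene of interferon-β, was at 15.1, 13.7 and 14.4 FPKM, and Csf2, the gene of GM-CSF, at 3.65, 3.19 and 3.95 FPKM. Il23a, whose product pairs with that of Il12b to form IL-23, reached only 2.11, 1.56 and 1.58 FPKM in 1 μM BMDMs, against 0.0188, 0 and 0.0466 FPKM in control. Il10, an anti-inflammatory cytokine gene, was at 10.2, 8.33 and 9.64 FPKM in 1 μM BMDMs, against 0.452, 0.439 and 0.416 FPKM in control (log2 fold change 3.81). The TNF family ligand genes Tnfsf9 and Tnfsf4 also rose, with log2 fold changes of 6.79 and 5.89. Il16, chosen after its values were seen, was the cytokine gene that fell, at 0.287, 0.182 and 0.251 FPKM in 1 μM BMDMs, against 5.06, 5.45 and 5.60 FPKM in control. Il18 (8.85, 8.77 and 8.34 FPKM in 1 μM BMDMs, against 6.09, 5.79 and 5.57 FPKM in control, log2 fold change 0.55) and Osm (3.13, 2.48 and 2.98 FPKM in 1 μM BMDMs, against 3.83, 3.93 and 4.03 FPKM in control, -0.43) passed the p threshold but not the fold threshold. Il18, whose protein is matured by caspase-1, was called higher after median-ratio scaling (0.90), after quantile normalization (0.87) and without control replicate 1 (0.59).

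Of 23 tested chemokine genes (26 listed), 19 rose and 0 fell (19 and 0 after median-ratio scaling), with a median log2 fold change of 4.43. Cxcl1, Cxcl2 and Cxcl3, whose proteins attract neutrophils, were below 1 FPKM in control. Cxcl1 was at 149, 127 and 140.4 FPKM in 1 μM BMDMs, against 0.121, 0.101 and 0.0925 FPKM in control. Cxcl2 was at 274, 210.2 and 249.98 FPKM in 1 μM BMDMs, against 0.636, 0.902 and 0.584 FPKM in control. Cxcl3 was at 66.1, 61.6 and 62.6 FPKM in 1 μM BMDMs, against 0.170, 0.137 and 0.231 FPKM in control. Their log2 fold changes lay between 7.22 for Cxcl3 and 8.61 for Cxcl1. The monocyte and T cell chemokine genes Ccl2, Ccl3, Ccl4 and Ccl5 had, beside Cxcl10, the highest FPKM of the list in 1 μM BMDMs. Ccl4 was at 1840.0, 1807 and 1862 FPKM in 1 μM BMDMs, against 32.2, 31.9 and 32.9 FPKM in control. Ccl3 was at 1519.9, 1387 and 1418 FPKM in 1 μM BMDMs, against 36.8, 37.8 and 41.4 FPKM in control. The annotated positions of Ccl3 and Ccl4 overlap on chromosome 11 (83647843 to 83649378 and 83648624 to 83664683), so reads could be shared between them. Ccl5 was at 882, 937 and 969 FPKM in 1 μM BMDMs, against 6.22, 4.58 and 6.17 FPKM in control. Ccl2 was at 824, 719 and 803 FPKM in 1 μM BMDMs, against 17.1, 18.5 and 18.5 FPKM in control. Ccl5 had the largest log2 fold change of these 4, 7.31, and Ccl2, Ccl3 and Ccl4 had 5.42, 5.21 and 5.82. Pf4, a platelet chemokine gene that BMDMs express, was at 335, 336 and 348 FPKM in 1 μM BMDMs, against 347, 354 and 345 FPKM in control and its groups overlapped.

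**Figure D2:**
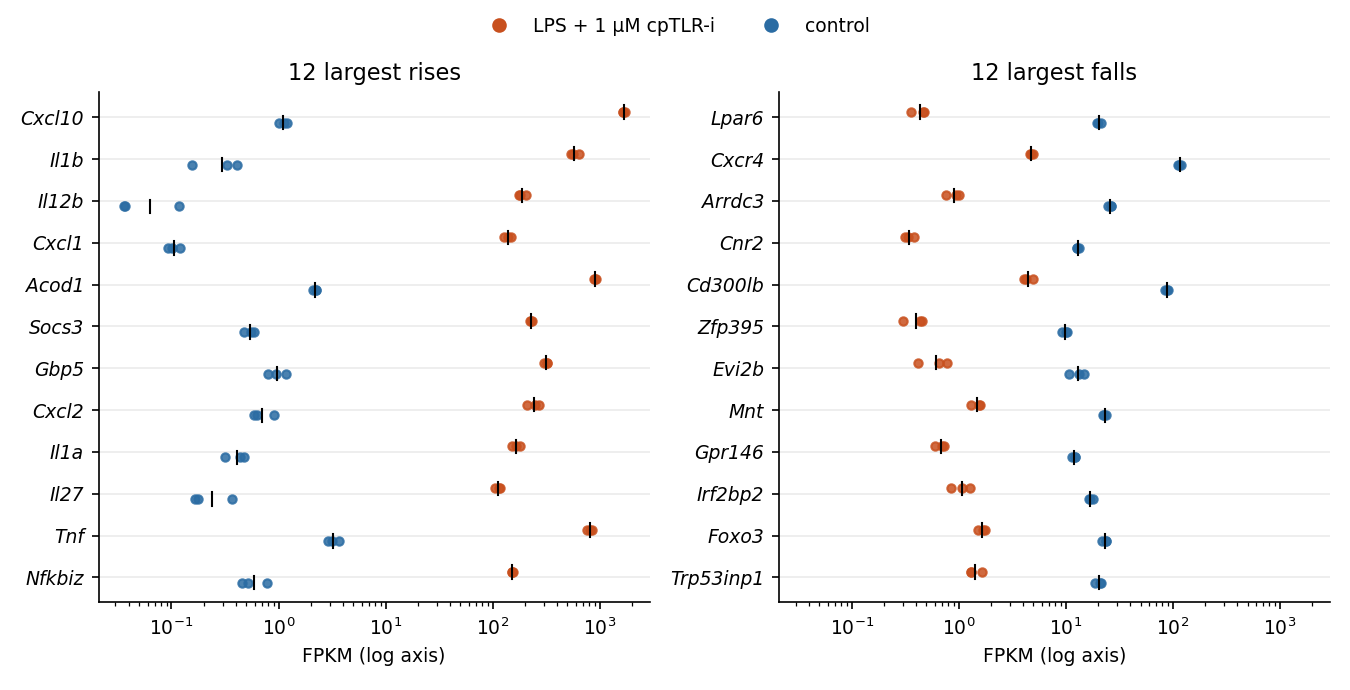
FPKM (log axis) in each library of the 1 μM group (orange) and of control (blue) for the 12 genes with the largest rises (left) and the 12 with the largest falls (right), with a black bar at each group mean. Genes were chosen from those whose groups do not overlap. Cxcl10 lies at 1639.7 to 1708 FPKM in 1 μM BMDMs and 1.01 to 1.20 FPKM in control, and Lpar6 at 0.361 to 0.472 FPKM in 1 μM BMDMs and 19.8 to 21.5 FPKM in control.

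Of 17 tested growth factor genes (26 listed), 4 rose and 3 fell (5 and 3 after median-ratio scaling). Edn1, which encodes the vasoconstrictor endothelin-1, was at 32.3, 26.8 and 29.0 FPKM in 1 μM BMDMs, against 0.0277, 0.0245 and 0.0896 FPKM in control. Inhba, an activin subunit gene, was at 1.58, 1.62 and 1.01 FPKM in 1 μM BMDMs, against 0.0151, 0.0206 and 0.0223 FPKM in control. Hbegf, an EGF family gene, was at 1.6, 1.23 and 1.6 FPKM in 1 μM BMDMs, against 0.391, 0.381 and 0.493 FPKM in control. Of these 3 genes, Edn1 was the one that reached a high level, and its log2 fold change was 6.64. Vegfa, the angiogenic factor gene, fell to 1.52, 1.68 and 1.78 FPKM in 1 μM BMDMs, against 12.1, 12 and 12.5 FPKM in control (log2 fold change -2.71, standard error 0.06, limma adjusted p = 2.95e-13).

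Of 17 tested genes of TLRs and LPS recognition (18 listed), 5 rose and 4 fell (7 and 2 after median-ratio scaling). The receptor for LPS itself was among those that fell. Tlr4 was at 5.07, 4.50 and 4.50 FPKM in 1 μM BMDMs, against 12.7, 11.4 and 13 FPKM in control. Tlr13, a sensor of bacterial ribosomal RNA, was at 52.2, 47.1 and 44.8 FPKM in 1 μM BMDMs, against 108, 106 and 113 FPKM in control. Tlr2, the receptor for bacterial lipoproteins, rose to 304, 284 and 276 FPKM in 1 μM BMDMs, against 9.83, 9.15 and 9.83 FPKM in control, a log2 fold change of 4.87 (standard error 0.04, limma adjusted p = 2.60e-17). Tlr1, its partner, was at 23.5, 23.1 and 21.9 FPKM in 1 μM BMDMs, against 8.62, 8.45 and 9.74 FPKM in control. The LPS coreceptor gene Cd14 was at 638, 610.3 and 612 FPKM in 1 μM BMDMs, against 47.7, 51.3 and 47.1 FPKM in control. Tlr2 and Cd14 thus rose by 4.87 and 3.66 on the log2 scale, while the changes of Tlr4 and Tlr13 were -1.36 and -1.18.

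Of 24 tested genes of TLR adaptors and proximal kinases (25 listed), 8 rose and 4 fell (13 and 2 after median-ratio scaling). Myd88 was at 61.1, 62.4 and 59.8 FPKM in 1 μM BMDMs, against 26.3, 27.2 and 26.8 FPKM in control. Tirap, the gene from whose protein the peptide motif was taken (gene ID 117149, chr9:35184391-35200291), was at 6.80, 6.31 and 6.46 FPKM in 1 μM BMDMs, against 4.86, 4.48 and 4.82 FPKM in control. Its log2 fold change of 0.45 did not pass the fold threshold, and it was called after median-ratio scaling (0.78) and quantile normalization (0.81). The kinase genes Irak2, Ikbke and Map3k8 rose, with log2 fold changes of 1.44, 1.45 and 2.17. Peli1, a ubiquitin ligase gene of this pathway, had the largest rise of the list, at 85.2, 83.3 and 83.7 FPKM in 1 μM BMDMs, against 8.30, 7.52 and 8.33 FPKM in control. Tab1, a partner of the kinase TAK1, fell to 1.74, 1.45 and 1.56 FPKM in 1 μM BMDMs, against 6.66, 6.86 and 6.92 FPKM in control.

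Of 11 tested genes of NF-κB subunits and IκB proteins (11 listed), 11 rose and 0 fell (11 and 0 after median-ratio scaling), with a median log2 fold change of 2.85. Nfkbia encodes IκBα, the inhibitor that NF-κB itself induces, and its promoter is among those shown above. Nfkbia was at 582, 563 and 588 FPKM in 1 μM BMDMs, against 15.5, 16.9 and 15.6 FPKM in control (log2 fold change 5.15, standard error 0.06, limma adjusted p = 1.04e-16). Nfkbiz, whose IκBζ protein acts as a cofactor for secondary response genes, was at 153, 155 and 151 FPKM in 1 μM BMDMs, against 0.458, 0.519 and 0.787 FPKM in control. Nfkbie was at 105, 105 and 102 FPKM in 1 μM BMDMs, against 1.73, 1.82 and 2.11 FPKM in control. The subunit genes Nfkb2, Relb and Nfkb1 had log2 fold changes of 3.54, 3.17 and 2.85.

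Of 25 tested genes of signal inhibitors (26 listed), 14 rose and 4 fell (14 and 3 after median-ratio scaling). Socs3, which blocks signaling from the IL-6 receptor, was at 231, 222 and 229 FPKM in 1 μM BMDMs, against 0.593, 0.549 and 0.473 FPKM in control. Cish, another SOCS family gene, was at 38.7, 36.2 and 39.1 FPKM in 1 μM BMDMs, against 0.169, 0.209 and 0.208 FPKM in control. Tnfaip3, which encodes the deubiquitinase A20, was at 272, 257 and 263 FPKM in 1 μM BMDMs, against 5.39, 5.40 and 5.49 FPKM in control. The log2 fold changes were 8.18 for Socs3, 6.42 for Cish and 5.54 for Tnfaip3. Socs1 was at 29.3, 44.4 and 42.3 FPKM in 1 μM BMDMs, against 0.627, 0.724 and 0.510 FPKM in control, lower in 1 of the 1 μM libraries than in the other 2 and far above control in all 3. Cd274, which encodes the T cell inhibitory ligand PD-L1, rose by a log2 fold change of 2.89.

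Of 13 tested MAP kinase phosphatase genes (13 listed), 6 rose and 4 fell (6 and 3 after median-ratio scaling). Dusp2, the gene of an inducible nuclear phosphatase, was at 33.0, 32.1 and 32.8 FPKM in 1 μM BMDMs, against 2.09, 2.41 and 1.89 FPKM in control. Dusp1, which encodes a phosphatase of p38 and JNK, was at 40.4, 36.4 and 45.5 FPKM in 1 μM BMDMs, against 14.5, 14.6 and 15.0 FPKM in control. Dusp6, an ERK phosphatase, fell to 0.717, 0.617 and 0.969 FPKM in 1 μM BMDMs, against 4.18, 4.38 and 4.73 FPKM in control. Of 16 tested genes of mRNA decay factors (18 listed), 4 rose and 6 fell (6 and 4 after median-ratio scaling). Zc3h12a, which encodes the RNase Regnase-1, was at 75.4, 71.0 and 72.5 FPKM in 1 μM BMDMs, against 5.10, 5.27 and 5.57 FPKM in control. Zfp36, which encodes the cytokine mRNA decay factor tristetraprolin, was at 167, 157 and 172 FPKM in 1 μM BMDMs, against 56.5, 56.6 and 58.7 FPKM in control. Its family members went the other way. Zfp36l2 was at 7.75, 8.08 and 8.92 FPKM in 1 μM BMDMs, against 68.2, 72.3 and 67.8 FPKM in control. Zfp36l1 was at 3.37, 2.70 and 3.40 FPKM in 1 μM BMDMs, against 21.7, 20.5 and 22.0 FPKM in control. The log2 fold changes of the family were 1.52 for Zfp36, -2.68 for Zfp36l1 and -3.04 for Zfp36l2.

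Of 23 tested immediate early genes (23 listed), 11 rose and 2 fell (15 and 1 after median-ratio scaling). Nr4a3, a nuclear receptor gene, was at 11.1, 10.2 and 10.7 FPKM in 1 μM BMDMs, against 0.0965, 0.0545 and 0.0911 FPKM in control. The AP-1 subunit genes Junb and Jun moved apart. Junb was at 199.7, 209 and 225 FPKM in 1 μM BMDMs, against 40.6, 41.9 and 38.2 FPKM in control. Jun was at 8.24, 7.55 and 9.19 FPKM in 1 μM BMDMs, against 42.3, 44.2 and 41.8 FPKM in control (log2 fold changes 2.39 for Junb and -2.33 for Jun). Egr1, an early growth response factor, was at 8.96, 9.61 and 9.79 FPKM in 1 μM BMDMs, against 1.64, 1.84 and 2.14 FPKM in control. Of 11 tested Krüppel-like factor genes (13 listed), 5 rose and 2 fell (5 and 1 after median-ratio scaling). Klf7 had the largest change of these, at 14.2, 13.7 and 11.9 FPKM in 1 μM BMDMs, against 1.44, 1.54 and 1.83 FPKM in control.

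Of 54 tested interferon-stimulated genes (55 listed), 45 rose and 0 fell (52 and 0 after median-ratio scaling), with a median log2 fold change of 2.46. Rsad2, which encodes the antiviral enzyme viperin, was at 975, 925 and 877 FPKM in 1 μM BMDMs, against 6.42, 7.27 and 9.34 FPKM in control. Ifit1, which encodes a sensor of viral RNA caps, was at 458, 421 and 409.7 FPKM in 1 μM BMDMs, against 2.40, 2.21 and 3.33 FPKM in control. Isg15, the gene of a ubiquitin-like modifier whose promoter is shown above, was at 290.3, 282 and 286 FPKM in 1 μM BMDMs, against 5.93, 6.22 and 7.63 FPKM in control. All 3 were below 10 FPKM in every control library, and their log2 fold changes were 6.88 for Rsad2, 7.23 for Ifit1 and 5.39 for Isg15. Gbp5, described above as an induced GTPase gene, had the largest change of the list, at 319, 319.7 and 302 FPKM in 1 μM BMDMs, against 0.949, 0.801 and 1.17 FPKM in control. Bst2, the tetherin gene, was at 119, 115 and 115 FPKM in 1 μM BMDMs, against 93.1, 93.1 and 91.0 FPKM in control and passed the fold threshold only after median-ratio scaling (0.69).

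Of 26 tested interferon regulatory and JAK-STAT genes (26 listed), 12 rose and 2 fell (15 and 1 after median-ratio scaling). Irf1 was at 451, 416 and 462 FPKM in 1 μM BMDMs, against 16.2, 15.8 and 16.9 FPKM in control. Irf7, the amplifier of type I interferon, was at 46.1, 53.4 and 44.9 FPKM in 1 μM BMDMs, against 8.62, 8.78 and 10.8 FPKM in control. The rise was larger for Irf1, with log2 fold changes of 4.74 for Irf1 and 2.33 for Irf7. Irf2bp2, a corepressor gene, fell to 0.855, 1.07 and 1.29 FPKM in 1 μM BMDMs, against 17.9, 16.7 and 16.4 FPKM in control, one of the 12 largest falls. Irf8, a transcription factor gene of the myeloid lineage, was the other that fell and was named after its values were seen, at 32.8, 34.5 and 31.3 FPKM in 1 μM BMDMs, against 51.3, 51.4 and 51.2 FPKM in control.

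Of 22 tested inflammatory enzyme genes (25 listed), 14 rose and 3 fell (16 and 1 after median-ratio scaling). Acod1 was at 919.9, 907 and 879.9 FPKM in 1 μM BMDMs, against 2.23, 2.09 and 2.26 FPKM in control (log2 fold change 8.53, standard error 0.04, limma adjusted p = 1.77e-19). Nos2, which makes nitric oxide from arginine, was at 39.3, 40.0 and 37.4 FPKM in 1 μM BMDMs, against 0.0694, 0.0201 and 0.0447 FPKM in control. Ptgs2, the cyclooxygenase-2 gene, was at 73.7, 65.1 and 68.5 FPKM in 1 μM BMDMs, against 0.190, 0.0842 and 0.138 FPKM in control. Nos2 and Ptgs2 were below 0.2 FPKM in every control library, and their log2 fold changes were 7.06 for Nos2 and 7.49 for Ptgs2. The amino acid transporter genes Slc7a2 and Slc7a11 rose, with log2 fold changes of 3.97 and 3.82. Of 16 tested inflammasome and pyroptosis genes (16 listed), 3 rose and 4 fell (6 and 4 after median-ratio scaling). Nlrp3, the sensor, was at 110.5, 103 and 104 FPKM in 1 μM BMDMs, against 7.35, 7.53 and 7.89 FPKM in control. Casp4, which encodes the caspase-11 that binds cytosolic LPS, was at 63.8, 61.4 and 59.6 FPKM in 1 μM BMDMs, against 6.85, 7.64 and 7.34 FPKM in control. Nlrp3 had a log2 fold change of 3.76 and Casp4 one of 3.04. P2rx7, the ATP-gated channel that triggers NLRP3, fell to 6.38, 6.27 and 5.92 FPKM in 1 μM BMDMs, against 19.5, 19.4 and 20.3 FPKM in control.

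Of 21 tested BCL2 family and survival genes (22 listed), 9 rose and 6 fell (9 and 5 after median-ratio scaling). The antiapoptotic genes Cflar and Birc3 had log2 fold changes of 3.42 and 2.04, and Bcl2a1d was at 157, 142 and 139 FPKM in 1 μM BMDMs, against 4.28, 4.70 and 4.31 FPKM in control. The Bcl2a1 genes on chromosome 9 are close copies of each other, so their individual values are uncertain. Bmf, a proapoptotic BH3-only gene, fell to 0.0571, 0.0708 and 0.0574 FPKM in 1 μM BMDMs, against 2.88, 2.56 and 2.73 FPKM in control.

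Of 16 tested genes of MHC class II and costimulation (17 listed), 8 rose and 0 fell (11 and 0 after median-ratio scaling). Cd40, which receives help from T cells, was at 237, 239.9 and 237 FPKM in 1 μM BMDMs, against 1.25, 1.63 and 1.22 FPKM in control. The ligands of CD28 rose less. Cd80 was at 18.7, 17.9 and 18.2 FPKM in 1 μM BMDMs, against 5.89, 6.33 and 6.90 FPKM in control. Cd86 was at 4.14, 4.21 and 3.99 FPKM in 1 μM BMDMs, against 2.28, 2.33 and 2.78 FPKM in control, and their log2 fold changes were 1.49 for Cd80 and 0.69 for Cd86. Cd86 was not called with a pseudocount of 1 (0.57). H2-Ab1, an MHC class II chain, was at 44.2, 50.2 and 51.9 FPKM in 1 μM BMDMs, against 38.3, 38.5 and 39.0 FPKM in control, and its log2 fold change of 0.33 passed the fold threshold only after median-ratio scaling (0.69). Of 20 tested adhesion and migration genes (22 listed), 12 rose and 2 fell (12 and 1 after median-ratio scaling). Icam1, the ligand of LFA-1, was at 859.5, 853 and 856 FPKM in 1 μM BMDMs, against 23.4, 23.9 and 23.5 FPKM in control. Marcksl1, an actin-binding protein gene, was at 448, 455 and 453 FPKM in 1 μM BMDMs, against 2.47, 2.40 and 1.94 FPKM in control. Itgam, which encodes CD11b, was at 164, 153 and 152 FPKM in 1 μM BMDMs, against 188, 181 and 193 FPKM in control (log2 fold change -0.26) and was not called.

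**Figure D3:**
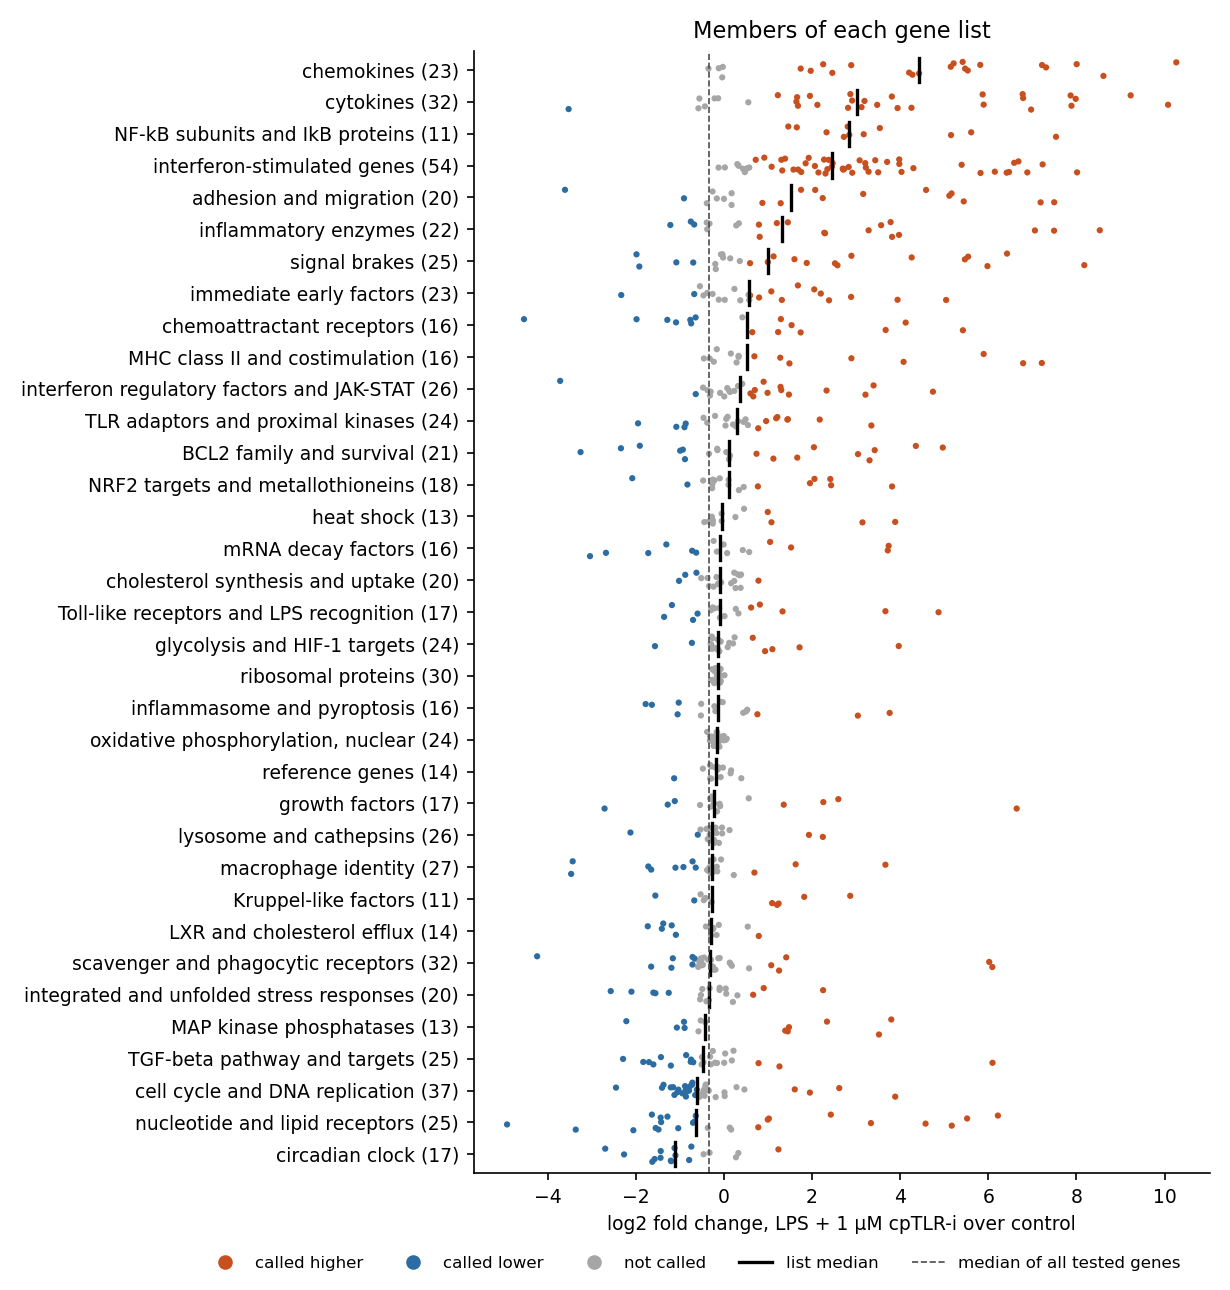
Log2 fold change of LPS + 1 μM cpTLR-i over control for the tested members of 35 gene lists, 1 point per gene, with the number tested in parentheses and a black bar at the list median. Lists run from the highest median (chemokines, 4.43) to the lowest (circadian clock, -1.12), and the dashed line marks the median of all tested genes, -0.33.

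Under the same limits, the 12 largest falls were in Lpar6, Cxcr4, Arrdc3, Cnr2, Cd300lb, Zfp395, Evi2b, Mnt, Gpr146, Irf2bp2, Foxo3 and Trp53inp1. Of these, 4 encode G protein-coupled receptors (Lpar6 for lysophosphatidic acid, Cxcr4 for the chemokine CXCL12, Cnr2 for cannabinoids and the orphan receptor Gpr146). Lpar6 was at 0.361, 0.465 and 0.472 FPKM in 1 μM BMDMs, against 19.8, 19.8 and 21.5 FPKM in control (log2 fold change -4.92, standard error 0.09, limma adjusted p = 2.40e-14). Cxcr4 was at 4.6, 4.72 and 4.94 FPKM in 1 μM BMDMs, against 119, 113 and 115 FPKM in control (log2 fold change -4.54, standard error 0.06, limma adjusted p = 4.07e-16). Cnr2 was at 0.313, 0.384 and 0.333 FPKM in 1 μM BMDMs, against 12.7, 12.8 and 13.4 FPKM in control. Gpr146 was at 0.737, 0.607 and 0.699 FPKM in 1 μM BMDMs, against 12.3, 11.6 and 12.3 FPKM in control. Foxo3, a forkhead transcription factor of quiescence, was at 1.5, 1.68 and 1.76 FPKM in 1 μM BMDMs, against 24.0, 21.9 and 23.8 FPKM in control. Mnt, a repressor that competes with Myc, was at 1.59, 1.32 and 1.53 FPKM in 1 μM BMDMs, against 23.8, 22.8 and 22.5 FPKM in control. Of these 4 genes, Cnr2 fell the furthest, with log2 fold changes of -4.48 for Cnr2, -3.76 for Mnt, -3.73 for Gpr146 and -3.63 for Foxo3. Cd300lb, an activating immunoglobulin-like receptor gene of myeloid cells, was the most abundant of the 12 after Cxcr4 in control, and was at 4.26, 4.08 and 4.94 FPKM in 1 μM BMDMs, against 89.0, 84.4 and 89.8 FPKM in control.

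Of 16 tested chemoattractant receptor genes (20 listed), 8 rose and 7 fell (9 and 4 after median-ratio scaling). Ccrl2, a chemerin-binding receptor gene, was at 320.2, 297 and 296 FPKM in 1 μM BMDMs, against 6.29, 6.81 and 7.50 FPKM in control, and the formyl peptide receptor genes Fpr2 and Fpr1 rose, with log2 fold changes of 4.12 and 3.67. Ccr2, the receptor for the product of Ccl2, fell to 1.66, 1.46 and 1.41 FPKM in 1 μM BMDMs, against 6.86, 6.45 and 6.78 FPKM in control, while its ligand gene rose. Of 25 tested nucleotide and lipid receptor genes (27 listed), 9 rose and 13 fell (9 and 10 after median-ratio scaling), with a median log2 fold change of -0.64. Adora2a, an adenosine receptor gene, was at 24.7, 25.6 and 26.0 FPKM in 1 μM BMDMs, against 0.0474, 0.125 and 0.119 FPKM in control. Adora2b, a related receptor gene, was at 17.7, 18.0 and 18.3 FPKM in 1 μM BMDMs, against 0.422, 0.536 and 0.602 FPKM in control. Both were below 1 FPKM in control, with log2 fold changes of 6.22 for Adora2a and 4.58 for Adora2b. Of 32 tested scavenger and phagocytic receptor genes (35 listed), 5 rose and 7 fell (6 and 4 after median-ratio scaling), and after quantile normalization 5 rose and 12 fell. The 5 and 7 genes were 15.6% and 21.9% of those tested, against 10.9% and 31.3% of all tested genes. Clec4e, which encodes the sensor Mincle, was at 341, 318 and 310.2 FPKM in 1 μM BMDMs, against 4.70, 4.53 and 4.98 FPKM in control. Mertk, the receptor for apoptotic cells, was at 10.2, 10.6 and 10.3 FPKM in 1 μM BMDMs, against 33.5, 31.2 and 34.6 FPKM in control, whereas Cd36 was at 454, 413 and 392 FPKM in 1 μM BMDMs, against 482, 463 and 491 FPKM in control and was not called.

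Of 27 tested macrophage identity genes (27 listed), 3 rose and 8 fell (3 and 5 after median-ratio scaling). These shares of 11.1% and 29.6% lay near the 10.9% and 31.3% of all tested genes, and the list's median log2 fold change of -0.28 lay near that of all tested genes. The transcription factor genes Cebpa and Maf were among those that fell. Cebpa was at 7.71, 9.14 and 9.94 FPKM in 1 μM BMDMs, against 97.9, 106 and 91.4 FPKM in control. Maf was at 18.6, 17.3 and 16.8 FPKM in 1 μM BMDMs, against 58.9, 56.3 and 59.2 FPKM in control. The log2 fold changes were -3.43 for Cebpa and -1.72 for Maf. Lyz2, the lysozyme gene of myeloid cells, was at 9981 ± 374 FPKM in 1 μM BMDMs and 12012 ± 247 FPKM in control (mean ± SD, n = 3) and was not called.

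Of 25 tested genes of the TGF-β pathway and its targets (28 listed), 3 rose and 10 fell (3 and 6 after median-ratio scaling). The share that fell was 40.0%, against 31.3% of all tested genes. Smad6, an inhibitory Smad gene, was at 0.427, 0.539 and 0.580 FPKM in 1 μM BMDMs, against 3.51, 3.60 and 3.32 FPKM in control. Smad7, the other inhibitory Smad gene, was at 0.295, 0.242 and 0.357 FPKM in 1 μM BMDMs, against 1.66, 1.95 and 1.49 FPKM in control. Id1, a target of BMP signaling, was at 1.52, 1.22 and 1.49 FPKM in 1 μM BMDMs, against 4.15, 5.41 and 4.83 FPKM in control. Ski, a corepressor gene of the Smads, was at 8.03, 8.12 and 8.03 FPKM in 1 μM BMDMs, against 27.0, 26.1 and 27.1 FPKM in control. The log2 fold changes of these 4 genes lay between -2.29 for Smad6 and -1.60 for Id1.

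Of 17 tested circadian clock genes (18 listed), 1 rose and 12 fell (3 and 10 after median-ratio scaling). The list had the lowest median log2 fold change, -1.12. Per1 was at 0.564, 0.523 and 0.686 FPKM in 1 μM BMDMs, against 5.27, 5.04 and 5.20 FPKM in control. Dbp, an output gene of the clock, was at 1.67, 1.70 and 1.87 FPKM in 1 μM BMDMs, against 9.03, 10.3 and 8.81 FPKM in control. Tef, a related output gene, was at 6.14, 5.61 and 5.66 FPKM in 1 μM BMDMs, against 17.7, 17.1 and 18.5 FPKM in control. The log2 fold changes were -2.69 for Per1, -2.26 for Dbp and -1.57 for Tef. The gene that rose was Nfil3, an interleukin-regulated repressor named after its values were seen, by a log2 fold change of 1.24.

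Of 37 tested cell cycle and replication genes (37 listed), 4 rose and 19 fell (6 and 9 after median-ratio scaling). These were 10.8% and 51.4%, against 10.9% and 31.3% of all tested genes. Ccnd1, the cyclin D1 gene, was at 10.3, 9.59 and 9.04 FPKM in 1 μM BMDMs, against 21.6, 22.3 and 23.8 FPKM in control. E2f2, a transcription factor gene of the G1 to S transition, was at 0.903, 0.941 and 0.799 FPKM in 1 μM BMDMs, against 6.03, 5.86 and 5.85 FPKM in control. Ccnd2, another D-type cyclin gene, rose the most, at 8.08, 7.61 and 7.71 FPKM in 1 μM BMDMs, against 0.341, 0.246 and 0.298 FPKM in control. Cdkn1a, which encodes the cyclin-dependent kinase inhibitor p21, was at 824, 769 and 755 FPKM in 1 μM BMDMs, against 130.4, 124 and 128 FPKM in control. The 2 rises had log2 fold changes of 3.89 for Ccnd2 and 2.62 for Cdkn1a and the falls -1.21 for Ccnd1 and -2.45 for E2f2. Mki67, the proliferation marker, was at 42.8, 41.0 and 43.0 FPKM in 1 μM BMDMs, against 29.9, 29.7 and 32.0 FPKM in control, and its log2 fold change of 0.47 passed the fold threshold only after median-ratio scaling (0.82).

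Of 24 tested glycolysis and HIF-1 target genes (24 listed), 5 rose and 2 fell (6 and 1 after median-ratio scaling). Hif1a was at 55.5, 53.7 and 51.2 FPKM in 1 μM BMDMs, against 16.0, 15.3 and 17.1 FPKM in control, and the glucose transporter genes Slc2a6 and Slc2a1 rose, with log2 fold changes of 3.97 and 1.10. Gapdh was at 513, 499.8 and 526 FPKM in 1 μM BMDMs, against 560.5, 565 and 569 FPKM in control. Of 14 tested genes of LXR and cholesterol efflux (14 listed), 1 rose and 5 fell (2 and 5 after median-ratio scaling). These shares of 7.14% and 35.7% lay near the 10.9% and 31.3% of all tested genes. The efflux transporter genes moved apart. Abca1 was at 45.7, 45.6 and 44.5 FPKM in 1 μM BMDMs, against 26.3, 25.2 and 26.7 FPKM in control. Abcg1 was at 14.6, 14.4 and 14.4 FPKM in 1 μM BMDMs, against 38.3, 39.3 and 39.0 FPKM in control. Abca1 had a log2 fold change of 0.79 and Abcg1 one of -1.41. Of 20 tested cholesterol synthesis and uptake genes (21 listed), 1 rose and 3 fell (8 and 1 after median-ratio scaling), so this list has no direction that holds under both scalings. Lss and Mvd, which encode enzymes of this pathway and were called lower, lost their calls after median-ratio scaling and quantile normalization.

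Of 18 tested NRF2 target and metallothionein genes (18 listed), 6 rose and 2 fell (8 and 1 after median-ratio scaling). Sqstm1, the gene of the autophagy receptor p62, was at 1818, 1751 and 1831 FPKM in 1 μM BMDMs, against 333, 329 and 338 FPKM in control. Hmox1, which encodes heme oxygenase-1, was at 179.9, 172 and 174 FPKM in 1 μM BMDMs, against 241, 245 and 243 FPKM in control. Hmox1 passed the fold threshold only after quantile normalization (-0.65). Of 20 tested genes of the integrated and unfolded stress responses (20 listed), 3 rose and 5 fell (4 and 5 after median-ratio scaling). Ddit3, the CHOP gene, and Trib3, its target, fell, with log2 fold changes of -1.55 and -1.60, while Atf4, which encodes a factor that induces both, was at 51.2, 48.5 and 51.8 FPKM in 1 μM BMDMs, against 46.6, 49.8 and 49.4 FPKM in control and its groups overlapped. Of 13 tested heat shock genes (13 listed), 4 rose and 0 fell (6 and 0 after median-ratio scaling). Hspa1a, an HSP70 gene, was at 16.7, 17.8 and 20.0 FPKM in 1 μM BMDMs, against 1.84, 1.80 and 1.83 FPKM in control. Hspa1b was at 19.8, 22.1 and 23.7 FPKM in 1 μM BMDMs, against 1.19, 1.18 and 1.38 FPKM in control. Their log2 fold changes were 3.14 for Hspa1a and 3.89 for Hspa1b. The 2 genes are near-identical copies, so reads may be split between them and their individual values are uncertain. Of 26 tested lysosomal and cathepsin genes (26 listed), 2 rose and 2 fell (2 and 1 after median-ratio scaling). Ctsc, which encodes the protease that activates granule serine proteases, rose by a log2 fold change of 2.24. The genes of the related transcription factors MITF and TFEB moved apart, with log2 fold changes of 1.93 for Mitf and -2.12 for Tfeb. Neu1, the other gene of the list that fell, lay at the fold threshold (-0.59), and without it the list had 1 lower gene. It was not called without control replicate 2, without 1 μM replicate 2 or 3, after either scaling or with a pseudocount of 1.

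By TPM, the share of each gene among all transcripts, which the authors also deposited, the largest gains were in Ccl4, Cxcl10, Ccl3, Sqstm1, Tnfaip2 and Spp1. Ccl4 made up 4411 ± 63.1 TPM in 1 μM BMDMs and 78.0 ± 0.899 TPM in control, and Tnfaip2 3289 ± 74.8 TPM in 1 μM BMDMs and 269 ± 2.32 TPM in control (mean ± SD, n = 3). The largest losses were in Ftl1, Ctsd, Lyz2, Psap, Gpnmb and Fth1, abundant genes of iron storage, lysosomes and lysozyme. Ftl1 was at 35321 ± 1001 TPM in 1 μM BMDMs and 42312 ± 1950.2 TPM in control. Ctsd was at 20197 ± 256 TPM in 1 μM BMDMs and 25540.0 ± 121 TPM in control. In the FPKM test none of these 6 passed the fold threshold, and Spp1 passed it only after median-ratio scaling (0.91). The 50 genes of highest TPM took 31.4% to 31.8% of all TPM in 1 μM BMDMs and 33.6% in control.

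Of 24 nuclear genes of oxidative phosphorylation and 30 of ribosomal proteins, 0 rose and 0 fell, with medians of -0.16 and -0.13. Each count of 0 given for a list against control was also 0 in limma at an unadjusted p under 0.05 with the same fold. Without the fold minimum, 18 and 24 genes of these 2 lists were lower. Of 14 reference genes, only Polr2a, the largest subunit of RNA polymerase II, was called, at 30.2, 29.9 and 28.9 FPKM in 1 μM BMDMs, against 65.4, 62.4 and 67.8 FPKM in control. Actb was at 2766, 2850.3 and 2397 FPKM in 1 μM BMDMs, against 1938, 2119 and 2023 FPKM in control, and it was called higher after median-ratio scaling (0.75).

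Markers of other cell types differed by list. The written dendritic cell markers summed to 117.54 to 121.29 FPKM in 1 μM BMDMs and 92.33 to 94.98 FPKM in control. Among the 3 tested, 1 rose. Those of erythroid cells and megakaryocytes summed to 335.71 to 349.03 FPKM in 1 μM BMDMs and 346.06 to 355.46 FPKM in control. Pf4, the platelet chemokine gene that BMDMs express, was by itself near these sums, as given above. Of the 11 written markers of these cells, only 2 were tested, and 0 rose and 0 fell. The sums reached only 3.78 FPKM for T, B and NK cell markers and 2.71 FPKM for mast cell, basophil and eosinophil markers. Stromal markers reached 1.70 FPKM, and 1 of 2 tested rose. Of 8 tested neutrophil markers (12 listed), 5 rose and 0 fell (6 and 0 after median-ratio scaling). Those that rose were Ngp, Camp, S100a9, S100a8 and Ltf. The summed FPKM of the 12 written markers was 29.8 to 34.7 in 1 μM BMDMs, 36.2 to 36.9 in the LPS libraries and 13.9 to 17.1 in control. S100a8, a calprotectin subunit gene, was at 12, 11.6 and 9.96 FPKM in 1 μM BMDMs, against 6.24, 5.87 and 6.15 FPKM in control. Ngp, a neutrophil granule gene, was at 6.72, 5.52 and 5.93 FPKM in 1 μM BMDMs, against 2.41, 1.95 and 2.64 FPKM in control. Camp and Ltf were not called with a pseudocount of 1 (0.46 for Camp and 0.37 for Ltf). The defining marker Ly6g was at 0.0350, 0 and 0 FPKM in 1 μM BMDMs and listed at 0 in all 3 control libraries. Cxcr2, another defining marker, did not exceed 0.1 FPKM. The part of these cells in the results was not tested. The T cell gene Cd3e, the mast cell gene Cpa3 and the stromal collagen gene Col1a1 did not exceed 0.06 FPKM in any of the 6 libraries. Zbtb46, a dendritic cell gene, was at 0.568, 0.847 and 0.737 FPKM in 1 μM BMDMs, against 0.0457, 0.0863 and 0.0313 FPKM in control, while Flt3 of the same list stayed below 0.1 FPKM in these 6 libraries. Both genes thus lay far below the sum of the dendritic cell list, which other members carried.

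The 1 μM and LPS groups share the control libraries, so their changes against control are given side by side. Against control, LPS alone gave 1355 higher genes (11%) and 4405 lower (35.8%). Between 1 μM BMDMs and LPS BMDMs directly, 61 genes were higher (0.495%) and 77 lower (0.625%). The higher genes included 6 of 23 immediate early genes and 3 of 11 Krüppel-like factors. The lower genes included 10 of 54 interferon-stimulated genes, 9 of 32 cytokines and 7 of 23 chemokines. The balance and the numbers of called genes changed with the settings. After median-ratio scaling there were 44 higher and 114 lower genes, and after quantile normalization 37 and 93. With a pseudocount of 1 there were 17 higher and 52 lower genes, and with no fold minimum 1803 and 537.

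Among called genes under the same limits (2 FPKM in a group, no overlap between the groups, predicted genes left out), the 8 largest differences above LPS alone were in Bhlhe40, Cebpb, Cxcr4, Fos, Fosb, Gdf15, Klf2 and Klf4. Fosb, Klf2 and Cebpb were above both other groups. Fosb, an AP-1 subunit gene, was at 3.40, 2.32 and 3.11 FPKM in 1 μM BMDMs, 0.422, 0.301 and 0.257 FPKM in LPS BMDMs and 0.172, 0.218 and 0.145 FPKM in control. Its log2 fold change was 2.89 against control and 2.46 against LPS alone (standard error 0.21, limma adjusted p = 2.30e-05). Klf2, which encodes a repressor of macrophage activation, was at 16.4, 19.3 and 23.8 FPKM in 1 μM BMDMs, 7.02, 5.84 and 7.29 FPKM in LPS BMDMs and 5.04, 6.25 and 4.89 FPKM in control. Its log2 fold change was 1.82 against control and 1.52 against LPS alone (standard error 0.18, limma adjusted p = 1.96e-04).

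Gdf15, Fos, Klf4, Bhlhe40 and Cxcr4 lay between LPS alone and control. Gdf15, a stress-induced cytokine of the TGF-β family, was at 19.6, 20.8 and 27.2 FPKM in 1 μM BMDMs, 9.80, 8.28 and 9.54 FPKM in LPS BMDMs and 28.4, 27.9 and 27.0 FPKM in control. Its 1 μM libraries reached into the range of control (log2 fold change -0.31, not called). Fos, an AP-1 subunit gene induced within minutes of stimulation, was at 10.5, 8.85 and 11.7 FPKM in 1 μM BMDMs, 4.45, 4.80 and 4.42 FPKM in LPS BMDMs and 15.1, 15.0 and 15.2 FPKM in control. Klf4, a Krüppel-like factor gene of monocyte differentiation, was at 2.97, 2.18 and 2.68 FPKM in 1 μM BMDMs, 0.986, 1.21 and 1.25 FPKM in LPS BMDMs and 3.74, 3.89 and 3.91 FPKM in control. Neither was called against control (-0.54 and -0.53), but Fos was called lower without 1 μM replicate 3 (-0.64) and Klf4 without 1 μM replicate 1 (-0.62). Bhlhe40, a transcriptional repressor gene that also belongs to the clock, was called against both groups, at 9.92, 8.64 and 9.86 FPKM in 1 μM BMDMs, 4.78, 5.13 and 4.36 FPKM in LPS BMDMs and 22.0, 21.5 and 22.8 FPKM in control. Cxcr4, described above among the largest falls, was at 2.44 ± 0.237 FPKM in LPS BMDMs (mean ± SD, n = 3), so the 1 μM libraries lay above them by a log2 fold change of 0.90 and far below control. Cebpb, a factor of myeloid cells, varied between its libraries, at 25, 39.1 and 62.3 FPKM in 1 μM BMDMs, 21.5, 18.0 and 21.0 FPKM in LPS BMDMs and 11.7, 16.0 and 10.6 FPKM in control. It was called against control under every alternative tried. Against LPS alone its log2 fold change of 0.96 was not called without 1 μM replicate 2 (0.97), without 1 μM replicate 3 (0.63), without LPS replicate 2 (0.88) or with no filter on low values.

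**Figure D4:**
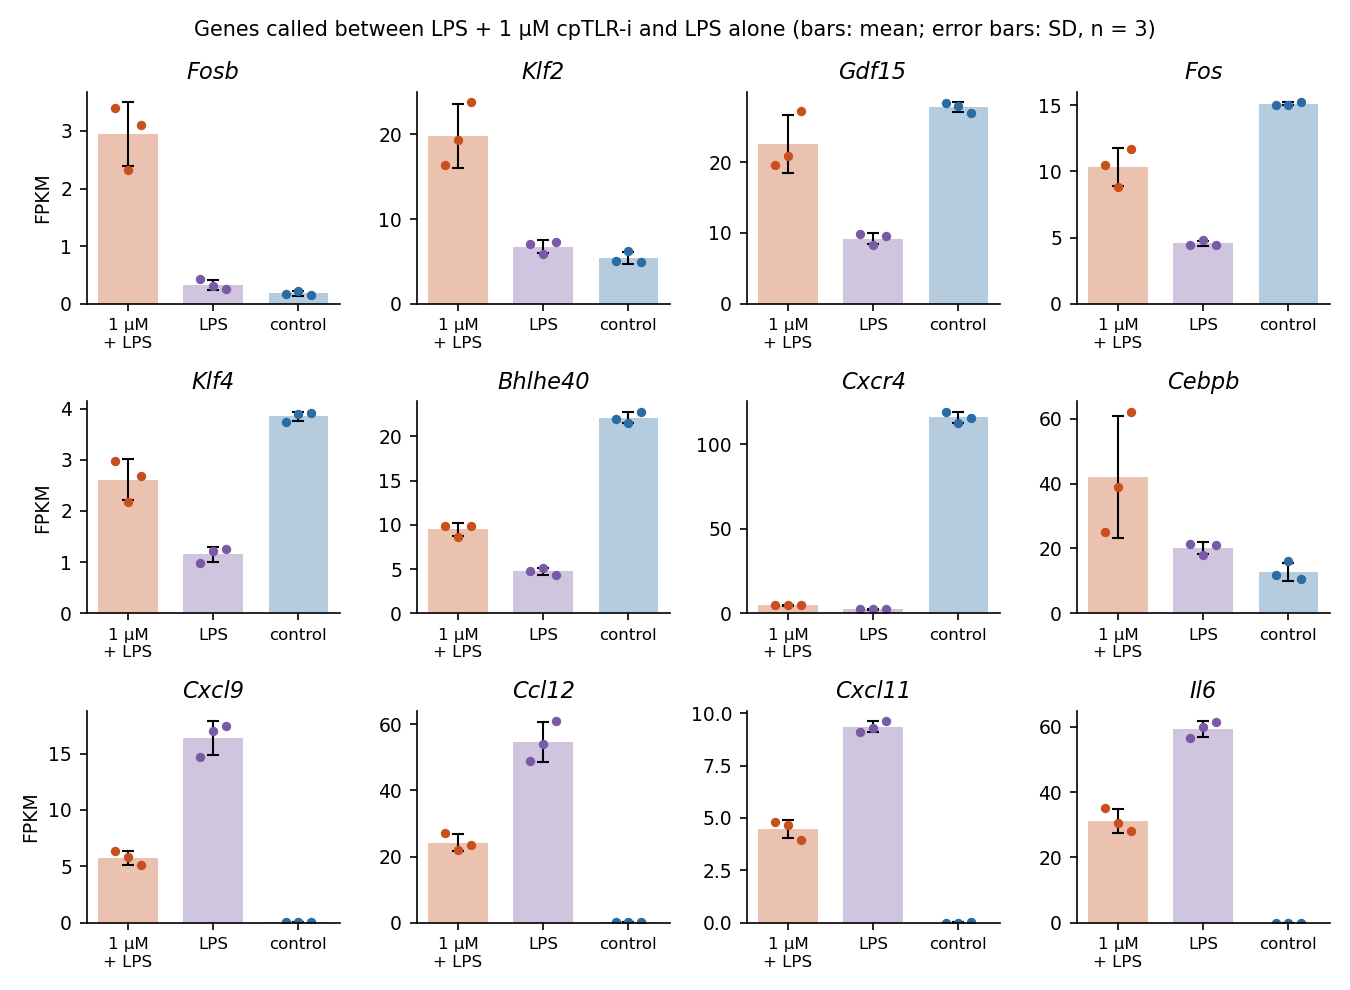
FPKM in the 3 libraries of the 1 μM group, of LPS alone and of control for 12 genes called between the 1 μM group and LPS alone. Bars are means, error bars SD (n = 3) and points libraries. Fosb, Klf2 and Cebpb are highest in the 1 μM group, Gdf15, Fos, Klf4, Bhlhe40 and Cxcr4 lie between LPS alone and control, and Cxcl9, Ccl12, Cxcl11 and Il6 lie below LPS alone and above control.

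The 8 largest differences below LPS alone under these limits were in Evi2b, Phf11c, Rsc1a1, Cxcl9, Ccl12, Cxcl11, Lhx2 and Lipg. Cxcl9 and Cxcl11 are the neighbors of Cxcl10 on chromosome 5. Cxcl9 was at 6.35, 5.84 and 5.12 FPKM in 1 μM BMDMs, 14.7, 17.0 and 17.5 FPKM in LPS BMDMs and 0.0319, 0.0989 and 0.0507 FPKM in control, with log2 fold changes of 4.28 against control and -1.47 against LPS alone (standard error 0.11, limma adjusted p = 1.15e-05). Cxcl11 was at 4.78, 4.68 and 3.96 FPKM in 1 μM BMDMs, 9.12, 9.31 and 9.62 FPKM in LPS BMDMs and 0, 0 and 0.0179 FPKM in control, with log2 fold changes of 4.20 against control and -1.03 against LPS alone. Cxcl10 itself was at 2483, 2562 and 2657 FPKM in LPS BMDMs, so that its log2 fold change was -0.62 against LPS alone, and it was not called after quantile normalization (-0.55). All 3 genes thus lay far above control and below LPS alone in every 1 μM library. Ccl12, a monocyte chemokine gene, was at 27.0, 22.0 and 23.4 FPKM in 1 μM BMDMs, 49.0, 53.9 and 60.9 FPKM in LPS BMDMs and 0.284, 0.273 and 0.337 FPKM in control. Lhx2, a homeobox gene, was at 1.61, 2.07 and 1.95 FPKM in 1 μM BMDMs, 3.71, 3.96 and 4.49 FPKM in LPS BMDMs and 0.0191, 0 and 0.116 FPKM in control. These 2 genes showed the same order of groups. Evi2b, a membrane protein gene of hematopoietic cells, was called lower than both other groups, the only one of the 8, at 0.417, 0.780 and 0.65 FPKM in 1 μM BMDMs, 3.31, 3.36 and 5.71 FPKM in LPS BMDMs and 14.9, 13.4 and 10.7 FPKM in control. Irf8 also lay below both, with 54.4 ± 3.64 FPKM in LPS BMDMs (mean ± SD, n = 3) and a log2 fold change of -0.72 against LPS alone. The values of Rsc1a1 scattered, at 0.0938, 0.191 and 2.36 FPKM in 1 μM BMDMs, and its range there overlapped that of control. Its call against LPS alone (log2 fold change -2.05) was lost without 1 μM replicate 1 (-1.5) or 2 (-1.68), without any 1 of the 3 LPS libraries (-2.10 to -1.97), by TPM (-2.49), with no filter, in a fit of the 2 groups alone and with a replicate block. Phf11c was at 0.183, 0.243 and 0.569 FPKM in 1 μM BMDMs, 2.68, 2.77 and 1.37 FPKM in LPS BMDMs and 0.189, 0.223 and 0.180 FPKM in control, and its 1 μM and control libraries overlapped.

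Among the cytokine genes that were called lower than with LPS alone, Il6 was at 56.5, 60.0 and 61.4 FPKM in LPS BMDMs, a log2 fold change of -0.92 (standard error 0.11, limma adjusted p = 2.18e-04). Ifnb1 was at 20.8, 23.7 and 22.9 FPKM in LPS BMDMs (log2 fold change -0.63), and Il1b at 929, 915 and 937 FPKM (-0.68). Other genes of the response were not called between the 2 activated groups. Tnf was at 931, 941 and 946 FPKM in LPS BMDMs (log2 fold change -0.21, 95% interval -0.38 to -0.05). Its interval lay below no change, so Tnf was lower than with LPS alone, by less than 1.5-fold. Nfkbia was at 613, 592 and 628 FPKM in LPS BMDMs (log2 fold change -0.08, 95% interval -0.20 to 0.04). The intervals of Tnf and Nfkbia lay within the 1.5-fold limits on both sides, and so did that of Cxcl1, a neutrophil chemokine gene that was at 126, 127 and 120.3 FPKM in LPS BMDMs (log2 fold change 0.15, 95% interval -0.13 to 0.44). Il10 was at 8.32, 9.18 and 7.66 FPKM in LPS BMDMs (log2 fold change 0.16, 95% interval -0.11 to 0.43), also within these limits. Of 24 tested genes that the study singled out (26 listed), 15 rose and 3 fell (17 and 3 after median-ratio scaling). Their choice rested on these samples, and their direction is therefore no independent evidence.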

How the data were processed

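RNA-seq libraries of WT BMDMs were analysed in 4 groups of 3, taken from the sample labels. The group with LPS and 10 μM cpTLR-i entered the filter and the fit over all 12 libraries, and its own changes are not described here. Per the labels and methods, the authors prepared poly(A) RNA with a TruSeq mRNA kit, aligned reads with HISAT2 to mm10 and quantified genes with StringTie. Whether counting used strand is not given, so overlapping and antisense genes cannot be told apart. The deposited table holds FPKM and TPM per gene and library, with 0 value columns left unused. It holds no counts. Low FPKM values were not whole multiples of the worth of 1 read (16.3% to 22.6% of low values within 0.05), so the depth of each library is unknown, no counting interval is given, and the DESeq2 test of the methods was not possible. From the low values, relative depth was roughly 1.00 to 1.22 in the 1 μM libraries and 1.01 to 1.27 in control. These ratios rest on the same uncertain worth of 1 read, so they do not show that depth was even.

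Log2(FPKM + 0.25) of the 12315 genes that reached 0.5 FPKM in 3 libraries or more was fitted with limma 3.58.1 (R 4.3.3) over all 12 libraries, with an intensity trend, two-sided contrasts and Benjamini-Hochberg adjustment. Genes were called at an adjusted p under 0.05 and more than 1.5-fold. On simulated data for the comparison with control, over 12315 genes, 100% of 100 genes changed 2-fold and 99% of 100 changed 4-fold were recovered, and 1 unchanged gene was called. The changed genes were drawn from those not of low level in control, and the spread was normal and independent. No other gene changed, whereas the real data had a median log2 fold change of -0.33, so these rates need not hold there. Named genes were the 12 highest and 12 lowest called log2 fold changes among genes of at least 2 FPKM in a group whose libraries did not overlap and whose symbols were not of predicted genes, the 6 largest gains and losses of TPM, core members and up to 5 called members of each list, genes the study names, and the 8 largest called differences from LPS alone in each direction under the same limits of level, overlap and symbol. The groups, lists and rules were chosen with earlier results of these data known. Alternatives were another pseudocount, filter, scaling or fold minimum, TPM, fits without trend or of 2 groups, a replicate block and leaving out each library. Gene positions and promoters came from RefSeq (GRCm38.p6) and transcript lengths from GENCODE M21. A few genes of the lists are not reported here by name.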

Additional observations from a re-analysis of the deposited data

How the results depend on the processing

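Between 1 μM BMDMs and control, the number of higher genes was 2315 with no fold minimum. The number of lower genes was 2149 after median-ratio scaling, 2280 after quantile normalization, 7924 with no fold minimum and 1795 with a 2-fold minimum. Between 1 μM BMDMs and LPS BMDMs, the number of higher genes was 17 with a pseudocount of 1, 37 after quantile normalization, 1803 with no fold minimum and 10 with a 2-fold minimum, and that of lower genes was 118 by TPM, 537 with no fold minimum and 10 with a 2-fold minimum. Between LPS BMDMs and control, 2094 genes were higher after median-ratio scaling and 2209 with no fold minimum, while 2284 were lower after median-ratio scaling, 2408 after quantile normalization, 8439 with no fold minimum and 2131 with a 2-fold minimum. The fold minimum and the scaling set these counts by their construction. Why the pseudocount and TPM moved counts against LPS alone was not tested.

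Leaving out each library in turn gave 1326 to 1356 higher and 3787 to 3921 lower genes against control, 47 to 75 higher and 57 to 106 lower genes against LPS alone, and 1336 to 1373 higher and 4344 to 4466 lower genes for LPS alone against control. Of 253 named genes, 53 changed their call in at least 1 alternative and 0 changed sign while called. Of the 25 genes named or compared with LPS alone, Cebpb, Cxcl10 and Rsc1a1 lost that call in at least 1 alternative and none of the 25 changed sign. The replicate numbers gave no clear pairing of the libraries. The correlation of the deviations of 1 μM and control libraries of the same number was 0.06, 0.05 and -0.07. Replicates 1 and 2 of the 1 μM group correlated best with the control of their own number, and replicate 3 with control replicate 2 (0.07). Correlations this small cannot settle if the libraries were paired. With a replicate block, 1343 genes were higher and 3849 lower than in control, 62 and 74 against LPS alone, and for LPS alone against control 1359 and 4411. With depth unknown, values under about 0.1 FPKM and the folds that rest on them are imprecise, and the 3 libraries a group limit all spreads.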

Other observations

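Transcript length and exon number came from GENCODE M21 through RefSeq accessions, which matched 90.2% of the tested genes. The median transcript of the genes that rose more than 4-fold had 2908 bases and 6 exons, that of the genes that fell more than 4-fold had 3533 bases and 7 exons, and that of all tested genes had 2924 bases and 9 exons. The medians were 3179 bases and 8 exons for all raised genes and 3225.5 bases and 8 exons for all lowered genes. Single-exon genes made up 5.49% of the strongly raised genes, 8.70% of the strongly lowered genes and 3.68% of all tested genes. They made up 3.98% of all raised genes and 4.37% of all lowered genes. Genes named Zfp with a number, which encode zinc finger proteins, made up 0.896% of the 1339 raised genes, 4.99% of the 3849 lowered genes and 2.41% of all tested genes. Among the genes changed more than 4-fold, their share was 0.221% of the raised and 2.99% of the lowered genes, the latter near that of all tested genes.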
